A study of Mus musculus with 6 samples.

Results

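The 10 genes described here encode the carriers through which the intestinal epithelium takes up and releases amino acids and small peptides. They were chosen by gene symbol: Slc15a1, Slc6a19, Slc6a20a, Slc6a14, Slc7a9, Slc3a1, Slc1a1, Slc7a7, Slc7a8 and Slc3a2. All 10 were found among the 19938 genes measured, each with 1 probe set, and none shared a probe set with another gene. The tissue was whole ileum, the distal end of the small bowel, of 6 mice, and each mouse had its own Affymetrix mouse Gene 1.0 ST array. In the first group, 3 mice carried Villin-CreERT2, a tamoxifen-inducible Cre active in intestinal epithelium, together with GATA6 flox/flox, that is, floxed copies of the gene of a GATA family transcription factor. In the second, 3 control mice carried Villin-CreERT2 alone. Both groups ate chow and were injected with tamoxifen (100 mg/ml) on 5 days when 6 to 8 weeks old, and the ileum was taken 28 days after that. The labels give the age at harvest once as 10 weeks and once as 10 to 12 weeks. RNA came from the full wall of the ileum, so it also holds muscle, connective tissue and immune cells, in which the Villin promoter is not active.

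Dietary protein reaches the absorptive enterocyte as free amino acids and as di- and tripeptides. Carriers of the brush border, the apical membrane that faces the lumen, bring them into the cell by coupling to sodium, to protons or to the exchange of another amino acid. Carriers of the basolateral membrane then pass amino acids on to the blood. Several of these carriers are heterodimers, in which a light subunit of the SLC7 family carries the substrate and a heavy subunit of the SLC3 family brings it to the membrane.

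The labelled knockout was not borne out by the signal of Gata6 itself, which read 6.94, 6.81 and 6.86 on the arrays labelled Gata6 KO and 6.31, 6.33 and 6.50 on the control arrays (log2 signal). No source used here gives the position of its probe set with respect to the floxed part, so every direction below is that of arrays labelled Gata6 KO. Control replicate 3 had the Xist and Eif2s3y signal of a male and the other 5 arrays that of females. Median log2 signals over all probe sets were 3.33 to 3.38 on KO-labelled arrays and 3.41 to 3.44 on control arrays. Genes were tested with limma, and a gene passed at a Benjamini-Hochberg adjusted p under 0.05 over all genes. Of the 19938 genes, 3.25% were lower and 4.99% higher on KO-labelled arrays, 8.24% in all. These shares amount to 648 lower and 995 higher genes, and they became 863 lower and 824 higher after each array was centred on its median. Without KO-labelled replicates 1, 2 or 3 the lower genes numbered 306, 277 and 329, and the higher ones 567, 320 and 397. Without control replicate 3 these counts were 286 and 393, and without control replicate 1 they were 459 and 630.

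Of the 10 transporters, 8 fell, 1 rose and 1 did not pass on the arrays labelled Gata6 KO. The 8 that fell were Slc6a19, Slc6a20a, Slc15a1, Slc1a1, Slc7a7, Slc7a9, Slc3a1 and Slc3a2, with log2 fold changes between -2.74 and -0.84, whereas Slc6a14 rose and Slc7a8 was the member that did not pass. The groups did not overlap for these 8 decreases nor for the increase, against 12.6% of all genes with KO-labelled arrays below control arrays and 16.8% above, 29.3% in all. Decreases of at least 2-fold were found in 7 members, against 0.983% of all genes, and of at least 4-fold in 4, against 0.276%. An increase of at least 2-fold was found in 1, against 0.818% of all genes. The median log2 fold change of the 10 was -1.53, against -0.0043 over all 19938 genes. The 10 were chosen with earlier results of these data known, so these contrasts with all genes are descriptive and no test. In whole tissue, fewer cells of a type and less RNA per cell cannot be told apart.

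**Figure D1:**
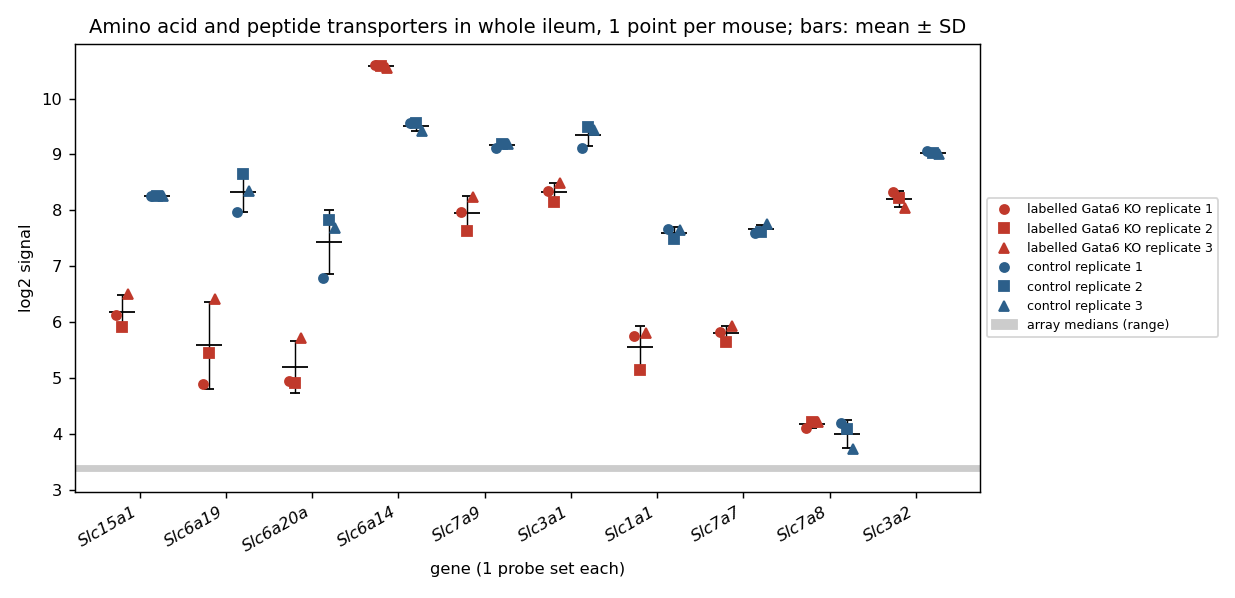
Log2 signal of the 10 transporters (vertical axis) on each of the 6 arrays, with arrays labelled Gata6 KO in red to the left of control arrays in blue; points are mice, bars the mean and SD of 3, and the grey band the range of the array medians. The red points lie below the blue ones for 8 genes, above them for Slc6a14, and overlap them for Slc7a8.

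The stretches of DNA just upstream of 4 transporters are shown because they stand for the gene with the largest decrease, both subunits of 1 exchanger that fell together, and the gene that rose. Each is the 250 bases before the annotated start, from RefSeq on build GRCm38.p6, 5′ to 3′ on the strand of the gene. Capitals mark matches on either strand to the letters AGATAA or TGATAA, with G also allowed as the last letter, the form in which GATA factors are known to bind. The stretches lie at chr13:73692637-73692886 for Slc6a19 (minus strand), chr7:35448842-35449091 for Slc7a9 (plus strand, the first of 2 listed starts), chr17:85028097-85028346 for Slc3a1 (plus strand) and chrX:21714650-21714899 for Slc6a14 (plus strand).
Slc6a19: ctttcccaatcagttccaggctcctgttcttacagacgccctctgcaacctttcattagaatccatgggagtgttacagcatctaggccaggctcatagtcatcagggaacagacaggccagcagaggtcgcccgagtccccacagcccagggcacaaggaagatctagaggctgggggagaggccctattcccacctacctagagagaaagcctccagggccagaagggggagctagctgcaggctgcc
Slc7a9: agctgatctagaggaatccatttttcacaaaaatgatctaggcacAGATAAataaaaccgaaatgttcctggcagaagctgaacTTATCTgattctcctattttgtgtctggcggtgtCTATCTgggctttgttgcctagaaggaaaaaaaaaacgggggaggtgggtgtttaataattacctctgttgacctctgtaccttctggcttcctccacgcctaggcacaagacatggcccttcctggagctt
Slc3a1: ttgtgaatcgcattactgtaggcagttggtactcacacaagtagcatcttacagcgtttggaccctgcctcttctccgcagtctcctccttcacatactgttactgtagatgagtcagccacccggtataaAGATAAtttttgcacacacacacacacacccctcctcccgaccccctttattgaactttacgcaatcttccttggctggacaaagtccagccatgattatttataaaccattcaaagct
Slc6a14: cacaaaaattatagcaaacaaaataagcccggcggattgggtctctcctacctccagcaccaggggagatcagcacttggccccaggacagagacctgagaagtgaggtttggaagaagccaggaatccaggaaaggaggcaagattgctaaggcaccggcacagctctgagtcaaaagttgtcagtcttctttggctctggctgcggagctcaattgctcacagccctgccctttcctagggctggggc

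The Slc7a9 stretch held 3 such matches and that of Slc3a1 held 1, which begins 119 bases before the start. The stretches of Slc6a19 and Slc6a14 held none. Over all listed starts, 3 of the 10 genes, Slc3a1, Slc7a7 and Slc7a9, had a match, against 29.7% of the 27025 genes in the same table, so the share was near that of all genes. Among the 8 members that fell, Slc15a1, Slc1a1, Slc3a2, Slc6a19 and Slc6a20a had none. The matches describe letters in a short window and are not shown to be bound.

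Slc15a1 encodes the proton-coupled carrier that takes up di- and tripeptides at the brush border. Its log2 signal was 6.13, 5.91 and 6.51 on arrays labelled Gata6 KO and 8.25, 8.26 and 8.26 on control arrays. The 3 control mice were thus nearly equal, and the highest KO-labelled array lay 1.75 below the lowest control. The log2 fold change was -2.08 (SE 0.15, 95% interval -2.42 to -1.73, limma adjusted p = 7.21e-04), so that KO-labelled ileum had 23.7% of the control signal.

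Among the carriers of neutral amino acids, Slc6a19 and Slc6a20a fell while Slc6a14 rose. Slc6a19 encodes the main sodium-dependent carrier of neutral amino acids in the brush border. It read 4.89, 5.44 and 6.42 on KO-labelled arrays and 7.97, 8.65 and 8.35 on control arrays. This was the largest decrease of the 10, a change by -2.74 on the log2 scale (SE 0.37, 95% interval -3.61 to -1.87, limma adjusted p = 0.00669), or a 6.67-fold lower signal, and rank 19 among the decreases of all genes. It was also the member with the widest spread among the KO-labelled mice, with an SD of 0.78, and even its highest KO-labelled value lay 1.54 below the lowest control.

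Slc6a20a, whose product carries proline and other imino acids with sodium, read 4.95, 4.91 and 5.73 on KO-labelled arrays and 6.78, 7.83 and 7.69 on control arrays. Control replicate 1 was the lowest control, yet the groups stayed 1.06 apart. The log2 fold change was -2.24 (SE 0.32, limma adjusted p = 0.00839). Its near copy Slc6a20b is the next protein-coding gene on chromosome 9, and the probes of the 2 may share transcripts, so the change of each is uncertain in size. Slc6a20b read 2.85, 2.65 and 2.80 on KO-labelled arrays, below the array medians, and 3.27, 3.51 and 3.76 on control arrays (log2 fold change -0.75, SE 0.13, limma adjusted p = 0.0173). That call was lost without KO-labelled replicate 1 (0.0545), 2 (0.0821) or 3 (0.0626).

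Slc6a14 encodes a sodium- and chloride-dependent carrier of broad range that takes both neutral and cationic amino acids. Its signal was 10.61, 10.59 and 10.55 on KO-labelled arrays and 9.56, 9.56 and 9.41 on control arrays. Both groups were tight, and all 3 KO-labelled mice lay above all controls, by at least 0.99. The log2 fold change of 1.07 (SE 0.08, 95% interval 0.89 to 1.25, limma adjusted p = 7.43e-04) is a 2.11-fold higher signal. The gene is on the X chromosome. Without control replicate 3, the array with male signals, the log2 fold change was 1.03 (limma adjusted p = 0.0064).

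The exchanger that brings cystine and cationic amino acids into the enterocyte in return for neutral ones is made of the light subunit Slc7a9 and the heavy subunit Slc3a1, and both fell. Slc7a9 read 7.98, 7.64 and 8.24 on arrays labelled Gata6 KO and 9.12, 9.19 and 9.19 on control arrays, a change by -1.21 on the log2 scale (SE 0.15, limma adjusted p = 0.00433). Slc3a1 read 8.34, 8.14 and 8.48 on KO-labelled arrays and 9.12, 9.49 and 9.44 on control arrays, a change by -1.03 on the log2 scale (SE 0.13, limma adjusted p = 0.00527). The signal left on KO-labelled arrays was thus 43.1% for the light and 49.1% for the heavy subunit. In both genes KO-labelled replicate 2 was lowest and replicate 3 highest of its group.

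Slc1a1 encodes the sodium-dependent carrier of glutamate and aspartate, which is known to be abundant in the ileum. It read 5.74, 5.15 and 5.80 on KO-labelled arrays and 7.67, 7.49 and 7.65 on control arrays. The groups were 1.69 apart, with an SD of 0.36 among KO-labelled mice and 0.10 among controls. The log2 fold change was -2.04 (SE 0.17, 95% interval -2.45 to -1.63, limma adjusted p = 0.0013).

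On the basolateral side, Slc7a7 and Slc3a2 fell and Slc7a8 did not pass. Slc7a7 is the light subunit of the exchanger that releases cationic amino acids to the blood in return for neutral amino acids and sodium. It read 5.83, 5.65 and 5.93 on KO-labelled arrays and 7.60, 7.62 and 7.76 on control arrays. With SDs of 0.14 and 0.09 this was the member with the smallest adjusted p, with a change by -1.86 on the log2 scale (SE 0.10, 95% interval -2.08 to -1.63, limma adjusted p = 2.76e-04). Slc3a2, the heavy subunit that Slc7a7, Slc7a8 and other light subunits share, read 8.33, 8.22 and 8.05 on KO-labelled arrays and 9.07, 9.03 and 9.01 on control arrays. Its log2 fold change was -0.84 (SE 0.09, limma adjusted p = 0.00282), the smallest decrease among the 8. Among these 8, Slc3a2 alone had KO-labelled replicate 3 as the lowest of its group.

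Slc7a8, the light subunit of a basolateral exchanger of neutral amino acids, had a signal close to the array medians, though above them on all 6 arrays. It read 4.11, 4.22 and 4.22 on KO-labelled arrays and 4.19, 4.08 and 3.72 on control arrays, and the groups overlapped. The log2 fold change was 0.18 (SE 0.13, 95% interval -0.12 to 0.48, limma adjusted p = 0.436), so the interval includes no change as well as a rise of up to 0.48.

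**Figure D2:**
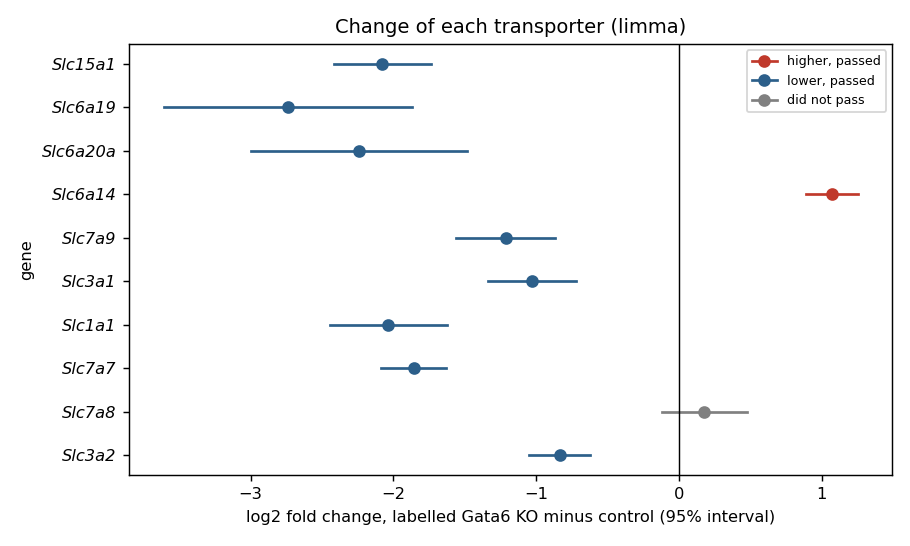
Log2 fold change of each transporter, arrays labelled Gata6 KO minus control (horizontal axis), with 95% intervals from limma; blue genes passed as lower, red as higher, grey did not pass. Apical genes stand above the basolateral genes Slc7a7, Slc7a8 and Slc3a2, and the changes run from -2.74 for Slc6a19 to 1.07 for Slc6a14.

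The light and heavy subunits of each heterodimer were compared as a difference of log2 signals within each array. A shift of that difference between the groups is read as unequal change. The difference does not show which subunit is more abundant. Slc7a7 minus Slc3a2 averaged -2.40 ± 0.24 on KO-labelled arrays and -1.37 ± 0.11 on control arrays (SD, n = 3 each), a shift of -1.02 (light against heavy subunit). Slc7a8 minus Slc3a2 averaged -4.02 ± 0.20 on KO-labelled arrays and -5.03 ± 0.22 on control arrays (SD, n = 3 each), a shift of 1.01. Slc7a8 lay close to the array medians and did not pass, whereas Slc3a2 itself changed by -0.84. In both pairs the groups did not overlap, and the two-sided exact permutation test gave p = 0.1, the smallest that 3 against 3 arrays allow (adjusted over 3 pairs, 0.15). Slc7a9 minus Slc3a1 averaged -0.37 ± 0.13 on KO-labelled arrays and -0.18 ± 0.16 on control arrays (SD, n = 3 each). For this pair the groups overlapped, with a shift of -0.19 (exact permutation p = 0.3, adjusted 0.3).

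**Figure D3:**
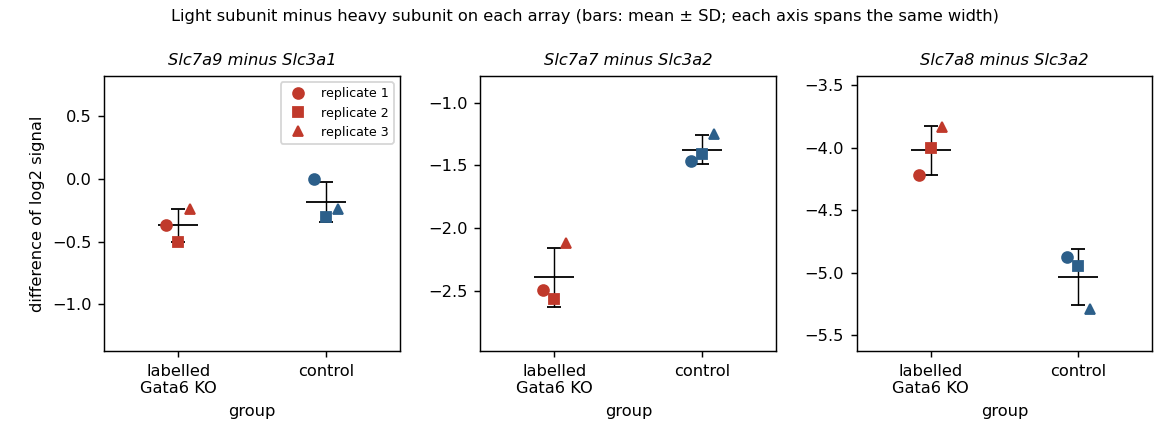
Light minus heavy subunit log2 signal on each array for 3 pairs (vertical axis), arrays labelled Gata6 KO on the left and control on the right of each panel, with mean and SD of 3; the panels have axes of equal width. The groups separate for Slc7a7 and Slc7a8 against Slc3a2, in opposite directions, and overlap for Slc7a9 against Slc3a1.

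The KO-labelled mice spread more than the controls in most of the members that fell. Among the 8 members that fell, KO-labelled replicate 3 was the highest of its group in 7 and replicate 2 the lowest in 6. Measured against the control mean, the median change of the 8 was -1.84 in KO-labelled replicate 1, -2.18 in replicate 2 and -1.72 in replicate 3. The SD over 3 mice was larger in the KO-labelled group than in controls for 6 of the 8, with medians of 0.30 and 0.09, whereas over all genes the SD was larger in the KO-labelled group for 41.8%. Among controls, replicate 1 was lowest in 6 of the 8, Slc6a20a with its value of 6.78 among them. The 6 include Slc15a1, whose controls were nearly equal (8.254, 8.258 and 8.256). The 8 genes were read on the same arrays, so counts of replicate order are not independent. Shares of all genes with these orders were not determined. With any 1 of the 6 arrays left out, all 8 decreases and the increase of Slc6a14 still passed, with the largest adjusted p, 0.0488, for Slc6a20a without KO-labelled replicate 2.

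Some calls depended on the variance model. In an ordinary linear model without moderation, 3 of the 8 decreases passed, and Slc6a19 (adjusted p = 0.0951), Slc6a20a (0.103), Slc7a9 (0.0716), Slc3a1 (0.0739) and Slc1a1 (0.0503) did not. Without control replicates 1 and 3 together, an alternative chosen after seeing the data, none of the 9 passed, with limma adjusted p of 0.057 to 0.16. That fit has 1 control left and called only 11 genes lower and 25 higher in all, while the log2 fold changes kept their direction and much of their size, such as -2.08 for Slc15a1 and -1.82 for Slc7a7.

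Markers of epithelium and of the other cells of the ileal wall were measured beside these genes. The epithelial list, with villin, keratins and Epcam, had all 11 genes above the array medians, and its summed linear signal was 10512 to 11705 on KO-labelled arrays and 10046 to 11145 on control arrays, with 1 gene, Krt19, higher and 1, Vil1, lower. Genes of ileal enterocytes, such as Fabp6 and Anpep, were lower in 5 of 7, against 3.25% of all genes. Their summed signals were 2297 to 3304 on KO-labelled arrays and 5853 to 6920 on control arrays. Of 10 smooth muscle genes 1, Tagln, was higher, and their sum was 3951 to 4966 on KO-labelled arrays and 3386 to 3853 on control arrays. All 10 had positive log2 fold changes (median 0.35). In 6 of them KO-labelled arrays lay above all controls, against 16.8% of all genes. Of 7 fibroblast genes 1, Dpt, was higher, with sums of 2475 to 3030 on KO-labelled arrays and 1710 to 2341 on control arrays. All 7 had positive log2 fold changes (median 0.43), and in 4 KO-labelled arrays lay above all controls. Bright genes weigh most in such sums. Sums of 9 lymphoid, 6 myeloid, 4 neural and glial, 5 endothelial and 1 erythroid gene overlapped between the groups, with Cd14, higher on KO-labelled arrays, the 1 gene of these that passed. These single marker calls held in few of the 6 fits without 1 array. Krt19 held in 0, Dpt in 1, and Vil1, Tagln and Cd14 in 2 each. Of the enterocyte genes that were lower, Fabp6, Anpep and Slc51b held in 6, Slc51a in 3 and Fabp2 in 2. Slc10a2 and Fgf15, also on that list, did not pass. The sums of the muscle and fibroblast lists thus did not overlap between the groups, and their part in the decreases of the transporters was not tested.

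Beyond the 10, 50 other carriers of amino acids and peptides were measured, of which 4 fell, 3 rose and 43 did not pass, or 14% called against 8.24% of all genes. Their median log2 fold change was -0.01. Of the 50, 19 lay below the array medians on all 6 arrays and none of these passed, so for them a change may not have been detectable. The carriers that fell included Slc43a2 and Slc16a10, both known from the basolateral membrane. Slc43a2, which lets branched-chain and aromatic amino acids leave the cell, read 5.38, 5.24 and 5.50 on KO-labelled arrays and 7.41, 7.38 and 7.42 on control arrays, a change by -2.03 on the log2 scale (SE 0.09, limma adjusted p = 1.58e-04). Slc16a10, the carrier that releases aromatic amino acids, read 3.99, 3.82 and 3.94 on KO-labelled arrays and 5.10, 5.70 and 5.11 on control arrays (-1.39, SE 0.16, limma adjusted p = 0.00409). In both genes all KO-labelled mice lay below all controls.

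Slc7a15, a further SLC7 gene, read 2.45, 1.94 and 2.19 on KO-labelled arrays and 4.31, 4.72 and 4.05 on control arrays. The difference on the log2 scale was -2.17 (SE 0.19, limma adjusted p = 0.00144), and since the KO-labelled values lay below the array medians the size of the decrease is uncertain. The fourth gene that fell was Slc6a20b, given above.

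The 3 that rose were Slc36a4, Slc1a4 and Slc6a9. Slc36a4, a carrier of proline and tryptophan, read 5.62, 5.76 and 5.63 on KO-labelled arrays and 4.56, 4.67 and 4.63 on control arrays, a change by 1.05 on the log2 scale (SE 0.08, limma adjusted p = 9.04e-04). The glycine carrier Slc6a9 was higher by 0.70 on the log2 scale (SE 0.10, limma adjusted p = 0.00674). Slc1a4, an exchanger of small neutral amino acids, had 0.72 (SE 0.13, limma adjusted p = 0.0207), and lost the call without KO-labelled replicate 2 (0.0944) or 3 (0.0728) and without control replicate 1 (0.0662) or 3 (0.0844). The 43 that did not pass had log2 fold changes of -0.37 to 0.58. Among them were all 11 genes of the SLC38 family of neutral amino acid carriers, 5 of which lay below the array medians on all 6 arrays.

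**Figure D4:**
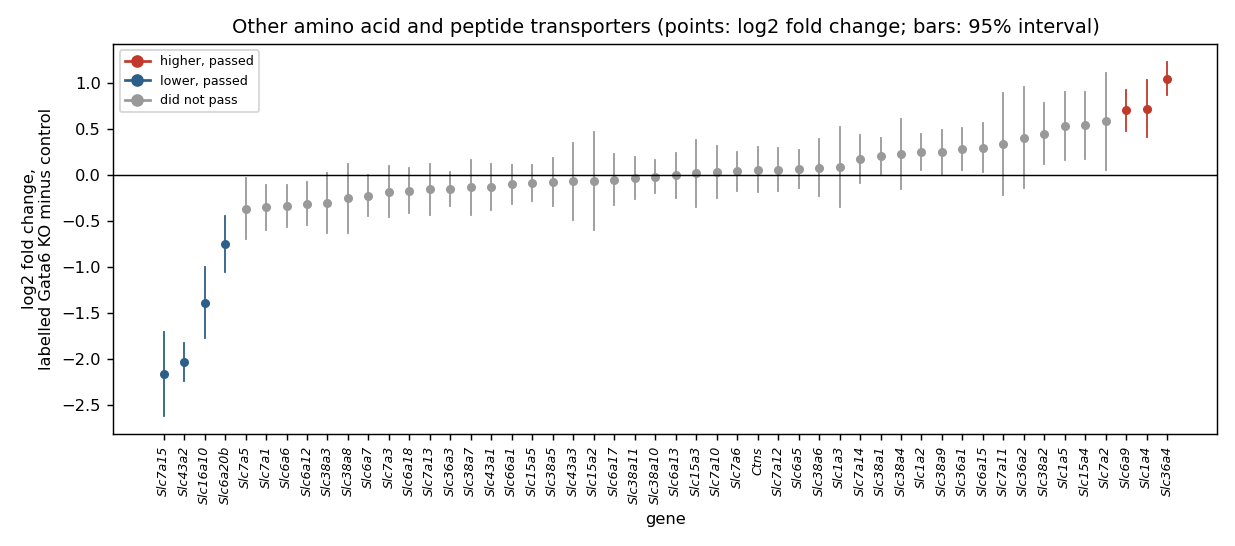
Log2 fold change of the 50 other amino acid and peptide carriers, arrays labelled Gata6 KO minus control (vertical axis), sorted along the horizontal axis, with 95% intervals from limma. The 4 blue genes at the left passed as lower, down to -2.17 for Slc7a15, the 3 red genes at the right as higher, up to 1.05 for Slc36a4, and the grey genes between -0.37 and 0.58 did not pass.

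Several members have a relative of the same family close by on the chromosome, and in 3 of 4 cases the neighbour did not pass, though its difference from the member was not tested. Slc6a18 adjoins Slc6a19 on chromosome 13. Its log2 fold change was -0.17, that of Slc6a19 was -2.74, and its signal lay below the array medians on all arrays. Slc7a10 had 0.03, against -1.21 for Slc7a9, from which 6 protein-coding genes on chromosome 7 divide it, none of which passed. The signal of Slc7a10 lay about the array medians, above them on only 1 KO-labelled and 1 control array, so a change could be hidden there and in Slc6a18. Slc7a8 and Slc7a7 are divided by 15 protein-coding genes on chromosome 14. Of the 14 of these that were measured, 1 passed, Mmp14. The exception was Slc6a20b beside Slc6a20a.

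Transcripts of proteins that hold or drive the brush border carriers were also listed, as 9 symbols with older and newer names of a gene counted apart. Of these 5 were measured, and 2 fell, against 3.25% lower among all genes. Pdzk1, a scaffold with PDZ domains that binds several apical carriers, read 3.61, 3.58 and 4.52 on KO-labelled arrays and 6.10, 7.56 and 7.03 on control arrays, a change by -2.99 on the log2 scale (SE 0.40, limma adjusted p = 0.0062). KO-labelled replicates 1 and 2 lay close to the array medians, so the size of this decrease is uncertain. The related scaffold Slc9a3r1 fell by 0.53 on the log2 scale (SE 0.09, limma adjusted p = 0.0167), a call lost without KO-labelled replicate 1 (0.0554) or 2 (0.074) or control replicate 3 (0.0576). Slc9a3, the sodium-proton exchanger that renews the proton gradient used by Slc15a1, differed by -0.10 on the log2 scale (SE 0.17, 95% interval -0.49 to 0.29, limma adjusted p = 0.761). Atp1b1, a subunit of the sodium pump, had -0.21 (SE 0.08, limma adjusted p = 0.179). Cltrn, the partner that brings Slc6a19 to the membrane in kidney, lay below the array medians on all 6 arrays.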

How the data were processed

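RNA of whole ileum was measured in 3 mice labelled Gata6 KO and 3 control mice, grouped by the sample titles. The values deposited by the authors are log2 signals, with 1 for each probe set on each array. Per the submitters' processing notes they were made in Affymetrix Expression Console. No source used here states the settings. The log base was read from the span of the values, -0.47 to 12.73. Of 35557 probe sets, 21789 have 1 gene symbol, 1621 several and 12147 are not listed; the last 2 kinds entered only the alternative that fits every probe set. For the 999 genes with several probe sets the brightest by mean was used. Genes were fitted with limma 3.58.1 in R 4.3.3 (lmFit, eBayes, Gata6 KO minus control, two-sided, Benjamini-Hochberg over 19938 genes), with no filter on dim genes. Named genes were the 10 members and, per list, up to 10 genes that passed with the largest change. Marker genes, Mmp14 and the genes named that did not pass (Slc6a18, Slc7a10, Slc9a3, Atp1b1, Cltrn) fall outside this rule; they were chosen with values in view. Members and lists were chosen with earlier results of these data known. Intervals are limma's moderated 95%. On simulated arrays the fit called 44.4% of genes given a log2 change of 0.5 and 97% of those given 1. Of all its calls there, 5.67% were false. Fewer genes were changed in the simulation than passed here, and its noise was independent between genes. These shares may therefore not hold for the real arrays. The number of arrays limits the precision. Alternatives concerned how arrays are scaled or weighted, which probe sets and dim genes enter, the variance model, the replicate number as a block, and arrays left out. The replicate numbers were not taken to pair the mice, since the sample titles give no pairing. Deviations of same-numbered arrays correlated at 0.04, -0.04 and 0.15, and those of differently numbered arrays at -0.12 to 0.08. With 3 arrays per group these values cannot decide whether the mice were paired.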

Additional observations from a re-analysis of the deposited data

How the results depend on the processing

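All 10 transporters kept their direction under every alternative run, and the 9 calls held under both scalings, the filter on dim genes, both other uses of probe sets, the intensity trend, array weights, the replicate block and each of the 6 fits without 1 array. Without moderation 3 members were lower, and Slc6a19 (-2.74), Slc6a20a (-2.24), Slc7a9 (-1.21), Slc3a1 (-1.03) and Slc1a1 (-2.04) did not pass; their fold changes are the same there, while the SE and the degrees of freedom differ. Without control replicates 1 and 3, chosen after seeing the data and with 1 control left that is assumed to vary like the other group, 0 members were lower and 0 higher: Slc15a1 (-2.08), Slc6a19 (-3.07), Slc6a20a (-2.64), Slc6a14 (1.03), Slc7a9 (-1.24), Slc3a1 (-1.17), Slc1a1 (-1.92), Slc7a7 (-1.82) and Slc3a2 (-0.83). Over all genes that fit called 11 lower and 25 higher, the fit of every probe set 406 and 491, and the fit without moderation 106 and 168. Leaving out 1 array gave 277 to 597 lower and 320 to 806 higher genes. Of the other 50 carriers, 1 was lower and 1 higher without moderation, 1 and 0 without those controls, and 5 were higher both with dim genes left out and with the replicate block; leaving out 1 array gave 3 to 4 lower and 2 to 4 higher. Of the partners, 0 were lower without moderation, 0 without those controls and 1 to 2 with 1 array left out. The replicate block, which treats same-numbered mice as paired, gave 475 lower and 766 higher genes and left 8 members lower and 1 higher. The differences between paired subunits kept their sign under all alternatives run, with ranges over the fits without 1 array of -0.25 to -0.10 for Slc7a9 and Slc3a1, -1.16 to -0.94 for Slc7a7 and Slc3a2, and 0.89 to 1.11 for Slc7a8 and Slc3a2. One further planned difference was not run. Other causes were not tested. Signal near or below the array medians limits the size of changes in dim genes.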
